A study of Mus musculus with 10 samples.

Results

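Genes that encode regulators of RNA splicing were followed through the reprogramming of mouse embryonic fibroblasts towards pluripotency. They were chosen by gene symbol: the numbered Srsf and Rbm genes, the Mbnl, Ptbp, Celf, Rbfox, Rbpms, Hnrnp, Khdrbs, Elavl, Tra2 and U2af genes, the Sf3a and Sf3b subunits, and Qk, each with at least 1 protein-coding transcript. The rule used no measured value and found 108 of the 45706 genes in the deposited tables. A further 6 symbols fitted the pattern but had no protein-coding transcript and were left out. By role, 13 genes encode SR proteins or their Tra2 relatives, 12 recognise the 3′ splice site or belong to the U2 particle, 23 are hnRNP or Ptbp genes, 22 belong to families known for tissue-type splicing, and 38 are Rbm genes.

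RNA was measured at 5 stages with 2 libraries each. The fibroblasts (MEF) carried the OKSM Col1a1/M2rtTA ROSA26 genotype, in which doxycycline switches on a cassette of Oct4, Klf4, Sox2 and Myc from the Col1a1 locus through the M2rtTA activator in Rosa26, and they grew in MEF medium without the drug. Cells of the same genotype were induced in ESC medium with doxycycline at 1 µg/ml and ascorbic acid at 50 µg/ml, and were taken on day 3 unsorted or on day 6 and day 9 after a sort described as SSEA+. Embryonic stem cells (ESC) were the V6.5 line, which is a single line, in ESC medium without either agent, unsorted and grown on irradiated feeder cells. All 5 groups were of C57BL/6 x 129 strain and shared 1 batch label. The comparison of day 3 with MEF therefore combined factor induction with a change of medium and ascorbic acid, and that of day 6 with day 3 combined time with the sort. ESC and day 9 differed in cell origin, doxycycline, ascorbic acid and the sort, and ESC held feeder cells. The labels do not say whether the 2 libraries of a group came from separate cultures, so p-values measure the spread between these libraries, which may be technical.

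Total estimated reads were 29585876 to 38275024 per library. Levels are given as CPM scaled with the trimmed mean of M values (TMM), which discounts the few genes that dominate a library. The summed level of 18 fibroblast markers was 51250 to 52720 CPM in MEF, 4773 to 4813 on day 3, 362.5 to 375.7 on day 6, 142 to 152 on day 9 and 4589 to 4742 in ESC, which held feeder cells. The 12 epithelial markers summed to 24.0 to 46.1 CPM in MEF and day 3, 299 to 303 on day 6, 1586 to 1649 on day 9 and 639 to 641 in ESC. The 16 pluripotency markers summed to 185 to 190 CPM in MEF, 125 to 131 on day 3, 238 to 242 on day 6, 520.5 to 526 on day 9 and 5244 to 5340 in ESC. Klf2 made up most of the MEF sum, at 170 and 166 CPM, and was at 6.03 and 5.29 on day 6. Fgf4 made up most of the day 3 sum, at 96.5 and 92.1 CPM. Among the fibroblast markers Lum was at 0 in both day 9 libraries and, with Fap, in 1 day 6 library, and among the epithelial ones Grhl2 in 1 MEF and Cldn6 in 1 day 3 library. Of the pluripotency markers 8 were at 0 in at least 1 library before ESC, Gdf3 in both MEF libraries. Xist, the RNA of the silenced X chromosome of female cells, was at 0.739 and 0.793 CPM in MEF and at 929.6 to 1317 in the induced libraries, while the Y-linked Ddx3y was at 86.4 and 90.6 CPM in MEF and at most 0.176 in the induced libraries. In ESC Xist was at 11.3 and 9.00 CPM and Ddx3y at 26.1 and 26.8. Both MEF and ESC thus differed from the induced libraries in a sex-linked signal that the labels do not mention, in the comparisons of day 3 with MEF and of ESC with day 9. By these 2 genes the MEF libraries were male and the day 3 libraries female. The comparison of day 3 with MEF was therefore also one of cells from different animals. The part of this difference in any result below was not tested. In bulk RNA, fewer cells of a type and less RNA per cell cannot be told apart.

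Splicing regulators bind the exons and introns of precursor RNA and steer which splice sites the spliceosome uses. SR proteins mostly promote the inclusion of the exons they bind, and hnRNP proteins often block it. U2AF and SF3 proteins belong to the core machinery that marks the 3′ end of an intron, while families such as MBNL, CELF, RBFOX and RBM20 give muscle, nerve or other tissues their particular isoforms. In mouse and human cells MBNL proteins are known to repress exon choices typical of embryonic stem cells. Many SR genes limit their own level by splicing a poison exon or keeping an intron, which turns part of their RNA into transcripts that cannot encode the full protein.

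The splicing genes as a group took up a larger share of the reads in every other stage than in MEF. They made up 1.26% of the reads in both MEF libraries, 1.76% in both day 3 libraries, 2.27% and 2.25% on day 6, 2.21% and 2.23% on day 9, and 2.03% and 2.02% in ESC. The groups did not overlap between MEF and any other stage. On this scale of library totals, genes in general also rose. The median log2 fold change of all tested genes was 0.285 for day 3 against MEF and 0.438 for ESC against MEF. The members had medians of 0.44 and 0.76 in these comparisons. In TMM-scaled CPM, with reads added up per gene, 60 of the 107 members tested (56.1%) had their highest group mean on day 6 or day 9, against 25.6% of the 15888 tested genes with a protein-coding transcript. The lowest mean fell in MEF for 59.8% of the members and for 33.8% of those genes. On the scale of the library total 50.5% of the members peaked on day 6 or 9 (27.9% of all), and in TPM, a relative abundance that divides by transcript length, 39.3% (22.8% of all).

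**Figure D1:**
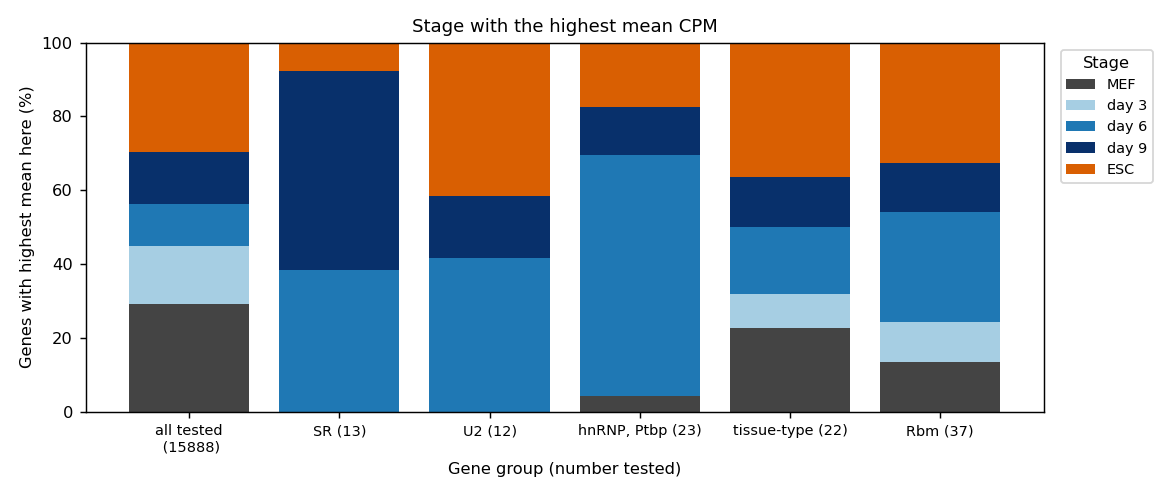
Share of genes, in percent, whose mean TMM-scaled CPM was highest at each stage, for all tested genes with a protein-coding transcript and for 5 groups of splicing regulators. Day 6 or day 9 held the peak of 92.3% of the SR genes and 78.3% of the hnRNP and Ptbp genes, against 25.6% of all genes.

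Each step was tested with the quasi-likelihood test of edgeR on all 20165 genes that passed the filter, and a gene was called at a Benjamini-Hochberg adjusted p under 0.05 and at least a 2-fold change. All but 1 of the 108 members were tested. The exception was Rbm31y, on the Y chromosome, with 0 reads in every library, which allows at most 0.0758 to 0.111 CPM per library (3 reads). Another 5 members stayed under a mean of 1 CPM in every group. Between day 3 and MEF 7 members were called higher and 6 lower, where 14.6% and 14.5% of all genes were. From day 3 to day 6, 8 were called higher (9.26% of all genes) and 2 lower (10.2%), and from day 6 to day 9, 5 higher (5.18%) and 0 lower (2.68%). DESeq2 and limma also gave 0 lower for that last step, and 42 members differed in either direction at an unadjusted p under 0.05, against 42.3% of all genes. ESC had 9 members called higher than on day 9 (18.6%) and 5 lower (14.3%), and 23 higher than MEF (25.5%) and 7 lower (20.6%). The shares of members called, counted over the 107, were thus below those of all genes in each comparison. Leaving out day 3 replicate 2 reduced the 2 lower calls of day 6 to 1, and leaving out day 9 replicate 2 reduced the 5 higher calls of day 9 to 3.

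Most changes that passed the test were under 2-fold. Without the fold minimum, 68 members rose and 18 fell from MEF to day 3 (35.4% and 29.5% of all genes), with a median log2 fold change of 0.24 against 0.08 over all genes. Another 70 rose and 9 fell from day 3 to day 6 (29.2% and 27.3% of all), with medians of 0.29 and 0.03. Between day 6 and day 9, 13 rose and 21 fell (15.7% and 18.9% of all) and the median was -0.02. From day 9 to ESC 28 were higher and 55 lower (36.1% and 33.5% of all), median -0.12 against 0.00, and ESC against MEF gave 71 higher and 28 lower (40.4% and 36.2% of all), median 0.42 against 0.10. The day 3 split depended on the scaling, with 82 higher and 7 lower on library totals and 48 higher and 24 lower in DESeq2. For ESC against MEF these were 80 and 14, and 63 and 29. With the 2-fold minimum, library totals gave 9 higher and 5 lower for day 3 and 40 higher and 5 lower for ESC against MEF. Scaling on library totals moved the median of all genes by 0.285 at day 3 and 0.438 for ESC against MEF, compared with 0.08 and 0.099 under TMM. The consecutive comparisons share libraries, so their counts are not independent. Of the 20165 genes, 15888 have a protein-coding transcript. Small changes pass a test without a fold minimum more easily in abundant genes, so the shares of all genes are a rough yardstick for the members.

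**Figure D2:**
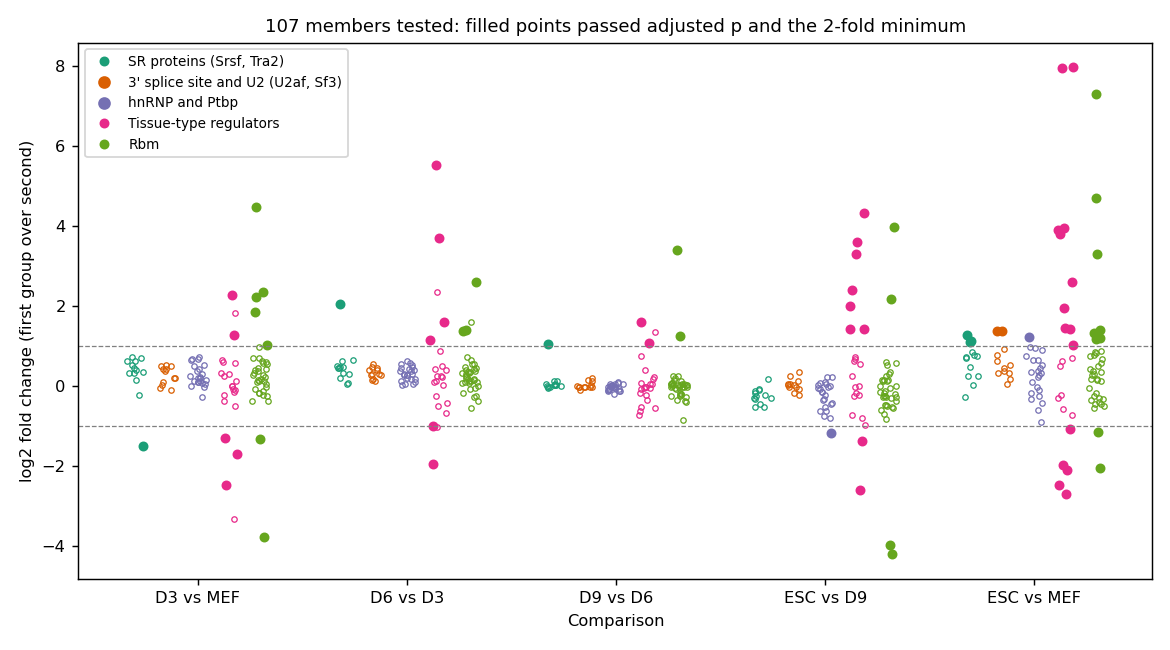
Fitted log2 fold change (vertical axis) of the 107 tested members in 5 comparisons, coloured by group, with filled points for members past adjusted p 0.05 and the 2-fold lines. Filled points lie mostly among the tissue-type and Rbm genes, while the U2, hnRNP and Ptbp genes lie between -0.29 and 0.72 at day 3 and between 0.01 and 0.63 at day 6, and the SR gene Srsf12 is called lower at day 3 and higher at day 6. Fitted values of genes listed at 0 in 1 group, such as Rbfox3, depend on the prior count and are no bound.

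The SR genes moved together. From MEF to day 3, 11 of the 13 rose and 2 fell (35.4% and 29.5% of all genes). From day 3 to day 6, 11 rose and none fell (29.2% and 27.3% of all). The median log2 fold changes were 0.40 and 0.45. In ESC 11 were lower than on day 9 and 1 higher (33.5% and 36.1% of all), with a median of -0.25. The direction of each median held on library totals and in DESeq2. Day 6 or day 9 held the highest mean of 12 of the 13, and still of 12 on library totals and 11 in TPM. The other was Tra2a, which peaked in ESC.

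Srsf1, the founding SR protein and a promoter of exon inclusion, was at 248 and 245 CPM in MEF, 377 and 381 on day 3, 514 and 515 on day 6, 518 and 524 on day 9 and 439 in both ESC libraries. It stood apart in MEF from every other stage, while day 6 and day 9 lay within a few percent of each other. The rise was 0.62 ± 0.03 (log2 fold change ± SE) at day 3 (edgeR, adjusted p = 1.1e-10) and 0.44 ± 0.03 at day 6 (adjusted p = 6.3e-09), and ESC fell by 0.25 from day 9. Srsf2, which binds exonic enhancers, went from 226 and 220 CPM in MEF to 508 and 522 on day 6 and stayed at 482 and 477 in ESC. Its level in ESC was 2.15 times that in MEF (edgeR adjusted p = 3e-13).

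Srsf3 is the smallest SR protein and also takes part in RNA export. It was at 281 and 289 CPM in MEF, 397 and 380 on day 3, 538 and 544 on day 6, 550 and 566 on day 9 and 475 and 476 in ESC. Srsf7, its closest relative, had the largest rise of the abundant SR genes, from 108 and 104 CPM in MEF to 274 and 272 on day 9 and 260 and 255 in ESC. The fold between ESC and MEF was 2.43 (edgeR adjusted p = 1.2e-13). Tra2b, which binds GAA-rich exonic enhancers, was at 181 and 190 CPM in MEF, 268 and 263 on day 3 and 337 and 326 on day 6. Its paralog Tra2a changed less, from 116 and 117 CPM in MEF to 133 and 134 on day 6, and was highest in ESC at 162 and 161.

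Srsf5 and Srsf9 departed from this course. Srsf5 rose from 400.2 and 399 CPM in MEF to 507 and 488 on day 3 and was back at 414 and 400 in ESC, where the difference from MEF was 0.03 ± 0.03 (edgeR adjusted p = 0.46). Srsf9 fell from 69.8 and 68.8 CPM in MEF to 61.3 and 57.4 on day 3, rose to 83.9 and 80.5 on day 6 and was lowest in ESC at 54.5 and 58.6. The scarce Srsf12 was at 0.739 and 0.640 CPM in MEF, 0.215 and 0.266 on day 3, 1.12 and 0.877 on day 6 and 1.99 and 2.10 on day 9. It was the only SR gene called in any step between consecutive stages, and at these levels each library rests on few reads.

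**Figure D3:**
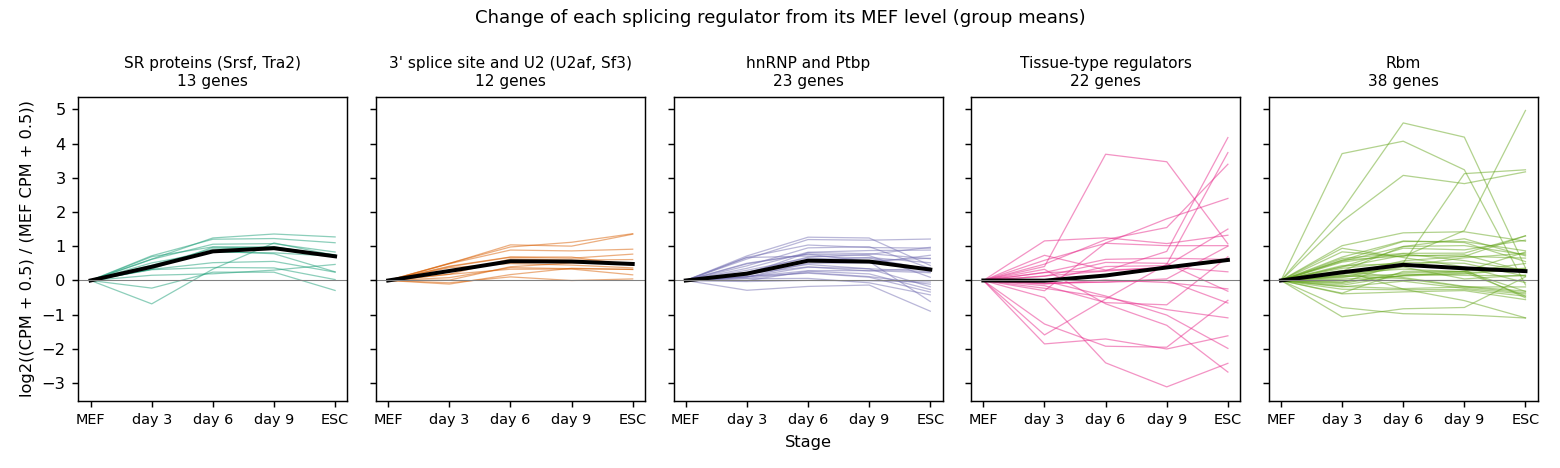
Change of each member from its MEF level, as log2((CPM + 0.5)/(MEF CPM + 0.5)) of the group means, by stage in 5 groups of genes. The thin lines are genes and the black line is their median, which reached 0.85 for the SR genes on day 6 while the tissue-type genes spread from well below to well above 0.

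Among the 3′ splice site and U2 genes, 8 of 12 rose from MEF to day 3 and 11 of 12 from day 3 to day 6, and none fell at either step (6 higher and 2 lower for day 3 in DESeq2). Of all genes, 35.4% rose and 29.5% fell at day 3, and 29.2% and 27.3% at day 6. U2af1, the subunit that reads the AG at the intron end, was at 73.5 and 71.3 CPM in MEF, 108 and 97.4 on day 3, 143 and 144 on day 6, 153 and 163 on day 9 and 185 and 190 in ESC. Its partner U2af2, which binds the pyrimidine tract, went from 207 and 208 CPM in MEF to 321 and 322 on day 6 and 313 and 321 in ESC. The ESC levels were 2.60 and 1.53 times those in MEF, with edgeR adjusted p of 2.8e-12 and 7.4e-10. Sf3b3, a scaffold of the SF3b complex, was higher at day 3 and day 6 and highest in ESC, with 206 and 207 CPM in MEF, 291 in both day 3 libraries, 426 and 425 on day 6, 416 and 413 on day 9 and 528 in both ESC libraries. Sf3b1, the largest SF3b subunit, which holds the branch point, showed little change, with all 10 libraries between 370 and 429 CPM and an ESC difference from MEF of 0.05 ± 0.03 (adjusted p = 0.21). Day 6 or 9 held the peak of 7 of the 12 genes, but of 3 on library totals and 2 in TPM, so the stage of the U2 peak depended on the scale. U2af1l4, a paralog of U2af1 that overlaps another gene on its strand and is uncertain, moved only between 18.8 and 25.6 CPM.

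The hnRNP and Ptbp genes were the most abundant group and rose in the same steps. From MEF to day 3, 18 of 23 rose and 1 fell (11 and 3 in DESeq2), against 35.4% and 29.5% of all genes. From day 3 to day 6, 19 of 23 rose and none fell, against 29.2% and 27.3% of all. Their summed level per length was 4072 to 4237 TPM in MEF, 4650 to 4894 on day 3, 6076 to 6093 on day 6, 5391 to 5458 on day 9 and 5017 to 5109 in ESC. In every group Hnrnph1, Hnrnpk, Ptbp1 and Hnrnpf were, in this order, the highest members in TPM, with group means of 1389 to 2148, 538 to 738, 436 to 560 and 269.5 to 437. A short transcript raises a gene's TPM for a given number of reads, and 77.7% to 81.1% of the Hnrnph1 reads were on transcripts annotated as non-coding. The peak on day 6 or 9 was seen for 18 of the 23 in TMM-scaled CPM, 16 on library totals and 13 in TPM.

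Hnrnpa1, a repressor of exon inclusion, was at 649 and 653 CPM in MEF, 888 and 863 on day 3, 1264 and 1259 on day 6, 1270 and 1313 on day 9 and 852 and 811 in ESC. Every day 6 and day 9 library lay above every other. Hnrnpa2b1, a relative of Hnrnpa1, also peaked there, at 1471 and 1453 CPM on day 6 against 855 and 856 in MEF and 927 and 898 in ESC. Hnrnpa1 and Hnrnpa2b1 each fell by 0.64 on the log2 scale from day 9 to ESC (edgeR adjusted p = 3.2e-10 and 2.1e-10). Reads of Hnrnpa1 may also match its many processed pseudogenes, so its level is uncertain. Hnrnpk, which binds C-rich RNA, was at 790 and 802 CPM in MEF, 1052 and 1045 on day 6 and 1026 and 1025 in ESC. Hnrnpu, which binds chromatin-associated RNA, went from 188 and 190 CPM in MEF to 455 and 456 on day 6 and was at 260 and 254 in ESC.

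Hnrnpr was the only member of this group called between ESC and day 9. It was at 123 and 121 CPM in MEF, 176 and 171 on day 3, 209 and 208 on day 6, 178 and 182 on day 9 and 80.1 and 79.1 in ESC, 2.26-fold below day 9 (edgeR adjusted p = 4.4e-13) and below MEF. Others kept their rise in ESC. Hnrnpl, which binds CA-rich RNA, was at 227 and 226 CPM in MEF, 400 and 405 on day 6 and 422 and 418 in ESC. Its paralog Hnrnpll did not follow, with 97.7 and 96.3 CPM in MEF, 120 and 115 on day 6 and 81.0 and 80.3 in ESC, a difference from MEF that turned to a rise of 0.07 on library totals.

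The 3 Ptbp paralogs bind the same pyrimidine-rich RNA, and Ptbp2 is known for replacing Ptbp1 in neurons. Ptbp1 was at 486 and 503 CPM in MEF, 522 and 542 on day 3, 652 and 645 on day 6, 631 and 625 on day 9 and 599 and 584 in ESC. Ptbp2 was at 31.7 and 31.8 CPM in MEF and 48.9 and 52.7 on day 3, a 1.60-fold rise (edgeR adjusted p = 6e-08), and 41.2 and 38.3 in ESC. Per length, Ptbp1 stayed 26.5 to 39.6 times above Ptbp2 over the 10 libraries. Ptbp3 fell in 2 steps, from 151 and 148 CPM in MEF to 120 and 125 on day 3, and from 137 and 136 on day 9 to 81.9 and 78.2 in ESC.

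The tissue-type families went in both directions. Of 22 genes, 7 rose and 7 fell at day 3, with a median of -0.01. This was close to the 35.4% and 29.5% of all genes. On library totals 11 rose, 4 fell and the median was 0.16, and in DESeq2 3 rose and 8 fell. Between ESC and MEF 10 were called higher and 5 lower, against 25.5% and 20.6% of all genes. Among the higher ones, Celf3, Celf6 and Rbfox3 had means under 1 CPM in every group. Some fell steadily to their lowest level in ESC, some were high only between the end points, and others rose in ESC.

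Mbnl1 and Mbnl2 lost most of their RNA on the way. Mbnl1 was at 188 and 186 CPM in MEF, 231 and 238 on day 3, 117 and 116 on day 6, 75.4 and 74.6 on day 9 and 28.1 and 29.5 in ESC. Libraries of neighbouring stages did not overlap, and after a rise of 0.33 ± 0.03 at day 3 each step was a fall. From day 3 to day 6 the change was -1.01 ± 0.03, which sat on the 2-fold line, and -0.94 on library totals. ESC lay 6.48-fold below MEF (edgeR adjusted p = 2.7e-16). Mbnl2 was at 252 and 250 CPM in MEF, 243 and 256 on day 3, 188 and 178 on day 6, 123 and 125 on day 9 and 63.5 and 62.5 in ESC, 3.98-fold below MEF (adjusted p = 6.3e-15). Its day 3 libraries spanned the MEF values (adjusted p = 0.83). The X-linked Mbnl3 was low throughout, at 3.21 to 6.33 CPM.

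Rbfox2 followed the same downward order with smaller steps. It was at 323 and 322 CPM in MEF, 274 and 277 on day 3, 229 and 230 on day 6, 181 and 176 on day 9 and 152 and 150 in ESC, with no overlap between neighbouring stages and an ESC level 2.14-fold below MEF (edgeR adjusted p = 1.8e-13). Rbfox2 recognises UGCAUG in introns and is known for epithelial and mesenchymal isoforms. Celf2 fell earlier, from 53.8 and 57.7 CPM in MEF and 37.0 and 41.7 on day 3 to 10.4 and 9.83 on day 6, a 3.89-fold drop (adjusted p = 1.5e-10). It was at 5.27 and 6.74 on day 9 and 10.3 and 9.72 in ESC. Celf1, which binds GU-rich RNA like Celf2, moved the opposite way, from 123 and 114 CPM in MEF to 253 and 251 on day 6 and 244 and 237 in ESC. Celf4 was at 4.21 and 3.75 CPM in MEF and 9.50 and 9.49 on day 3, a 2.39-fold rise (adjusted p = 1.5e-07), and stayed between 8.39 and 10.8 later. The ratio of Celf1 to Celf2 in TPM was 1.92 and 2.04 in MEF, 5.45 and 6.42 on day 3, 28.6 and 21.2 on day 6, 41.5 and 45.8 on day 9 and 27.8 and 28.0 in ESC. The summed fibroblast markers above also fell from MEF to day 9. In ESC, which held feeder cells, they stood at 4589 and 4742 CPM against 142 and 152 on day 9. Mbnl1, Mbnl2 and Rbfox2 were lower in ESC than on day 9, and Celf2 was higher. The part of fibroblasts in these changes was not tested.

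A second pattern was high only in the induced cells. Rbm20, known for splicing titin in heart muscle, was at 2.92 and 3.05 CPM in MEF, 13.4 and 14.6 on day 3, 85.7 and 83.1 on day 6, 61.8 and 64.5 on day 9 and 4.04 and 3.95 in ESC. It rose 4.67-fold to day 3 and a further 6.04-fold to day 6 (edgeR adjusted p = 2.5e-11 and 4.6e-14) and was 15.8-fold lower in ESC than on day 9. Rbm24, another muscle splicing factor, was at 0.665 and 0.671 CPM in MEF, 14.4 and 15.1 on day 3, 20.6 and 17.7 on day 6, 10.5 in both day 9 libraries and 0.707 and 0.427 in ESC. Its rise to day 3 was 22.0-fold (adjusted p = 1.1e-11), and ESC and MEF did not differ past the threshold (adjusted p = 0.48). Elavl4, a neuronal RNA-binding protein that also stabilises messages, appeared later, at 0.924 and 0.976 CPM in MEF, 1.08 and 1.77 on day 3, 20.4 and 16.1 on day 6, 14.7 and 16.5 on day 9 and 2.45 and 2.64 in ESC. The step from day 3 to day 6 was 12.9-fold (adjusted p = 4e-10).

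The promoters of Rbm24 and of the upstream start of Elavl4 are shown because these genes were low at both end points and high in between. The windows run from 250 bases before to 50 after the start in the RefSeq table of GRCm38.p6, and no window is shown for Rbm20. Other starts of Elavl4 are not shown, and 1 of them also held a match. Which start is used by the Elavl4 transcripts that rose on day 6 was not examined. Capitals in the Elavl4 window mark CCACCCCC, the reverse complement of a match to GGGNGTGG, the core bound by KLF factors, one of which the cassette encodes. Rbm24, chr13:46418050-46418349, plus strand, no match to the motifs searched:
Rbm24: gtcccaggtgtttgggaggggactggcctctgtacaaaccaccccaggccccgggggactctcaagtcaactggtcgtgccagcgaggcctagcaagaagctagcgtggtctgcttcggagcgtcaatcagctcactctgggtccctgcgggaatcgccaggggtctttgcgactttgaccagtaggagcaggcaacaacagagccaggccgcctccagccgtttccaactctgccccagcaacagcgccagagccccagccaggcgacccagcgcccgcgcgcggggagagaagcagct
Elavl4, chr4:110351862-110352161, minus strand:
Elavl4: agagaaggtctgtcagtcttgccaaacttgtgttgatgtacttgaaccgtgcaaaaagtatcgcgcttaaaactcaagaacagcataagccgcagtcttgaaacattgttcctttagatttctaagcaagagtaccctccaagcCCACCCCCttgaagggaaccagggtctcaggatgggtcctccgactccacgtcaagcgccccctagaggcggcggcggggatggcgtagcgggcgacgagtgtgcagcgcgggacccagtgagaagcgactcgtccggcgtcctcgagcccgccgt
The motifs were searched on both strands: GGGNGTGG was in 17.6% of all 32851 promoter windows and 24.1% of the 133 windows of members, the octamer ATGCAAAT in 1.74% and 0, and the E-box CACGTG in 7.15% and 8.27%. A match is a description of the letters only.

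Another set was highest in ESC. Rbpms2, an RNA-binding protein of smooth muscle and germ cells, fell from 14.3 and 14.5 CPM in MEF to 4.31 and 4.58 on day 3, then rose to 9.55 and 9.92 on day 6, 19.1 and 21.3 on day 9 and 199 in both ESC libraries. ESC was 9.78-fold above day 9 (edgeR adjusted p = 8.4e-16). Its paralog Rbpms was at 62.8 and 62.9 CPM in MEF, 40.1 and 39.8 on day 6, 36.3 and 40.1 on day 9 and 98.3 and 106 in ESC. Elavl2 rose from 1.03 and 1.13 CPM in MEF to 4.66 and 3.59 on day 9 and 16.5 and 15.9 in ESC, while its broadly expressed relative Elavl1 moved between 76.1 and 122 CPM. Elavl3 was at 0.547 CPM or less before ESC and at 8.93 and 9.40 in ESC, but a second gene model overlaps it on its strand, which makes its level uncertain.

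Rbm44, a germ cell protein, was at 0.148 and 0.0915 CPM in MEF, 1.22 and 1.19 on day 9 and 19.7 and 18.2 in ESC, 15.7-fold above day 9 (edgeR adjusted p = 2.2e-11). Celf5 climbed from 2.14 and 3.02 CPM in MEF to 6.09 and 6.08 on day 6, 9.84 and 10.7 on day 9 and 16.3 and 15.3 in ESC. Rbm47, known for splicing and RNA editing in epithelia, was at 0.575 CPM or less to day 6 and at 5.88 and 6.16 on day 9, a 10.6-fold step (adjusted p = 1.5e-07), and at 6.72 and 6.38 in ESC. The epithelial markers rose over the same step. Esrp1, an epithelial splicing regulator outside the member families, is among these markers. It was at 8.53 and 8.26 CPM on day 6, 85.4 and 82.1 on day 9 and 13.5 and 14.2 in ESC. Unlike Rbm47, Esrp1 and the summed markers were lower in ESC than on day 9. Rbm38, a p53 target, was at 5.87 and 4.94 CPM in MEF, 19.7 and 18.5 on day 3 and 50.4 and 48.0 on day 6 and stayed near that level.

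Khdrbs3 dipped in the induced cells. It was at 33.4 and 34.3 CPM in MEF, 14.1 and 13.3 on day 3, 9.41 and 7.71 on day 6, 8.29 and 8.46 on day 9 and 22.5 in both ESC libraries. The fall at day 3 was 2.47-fold and the ESC level 2.68-fold above day 9 (edgeR adjusted p = 1.3e-09 and 1.4e-09). Khdrbs1, its broadly expressed paralog Sam68, instead peaked at 327 and 311 CPM on day 6 and was at 179 and 176 in ESC, below its 220 and 222 in MEF, though library totals turned that difference to 0.03. Rbfox1 was at 3.44 and 3.81 CPM in MEF and at 0.473 to 0.913 in all other libraries. Rbfox3, a marker of mature neurons, was at 0 in the MEF and day 3 libraries, which allows at most 0.0808 to 0.111 CPM, and reached only 1.06 and 0.774 in ESC. Qk, the quaking gene of glia and muscle, stayed between 168 and 209.4 CPM in all 10 libraries.

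**Figure D4:**
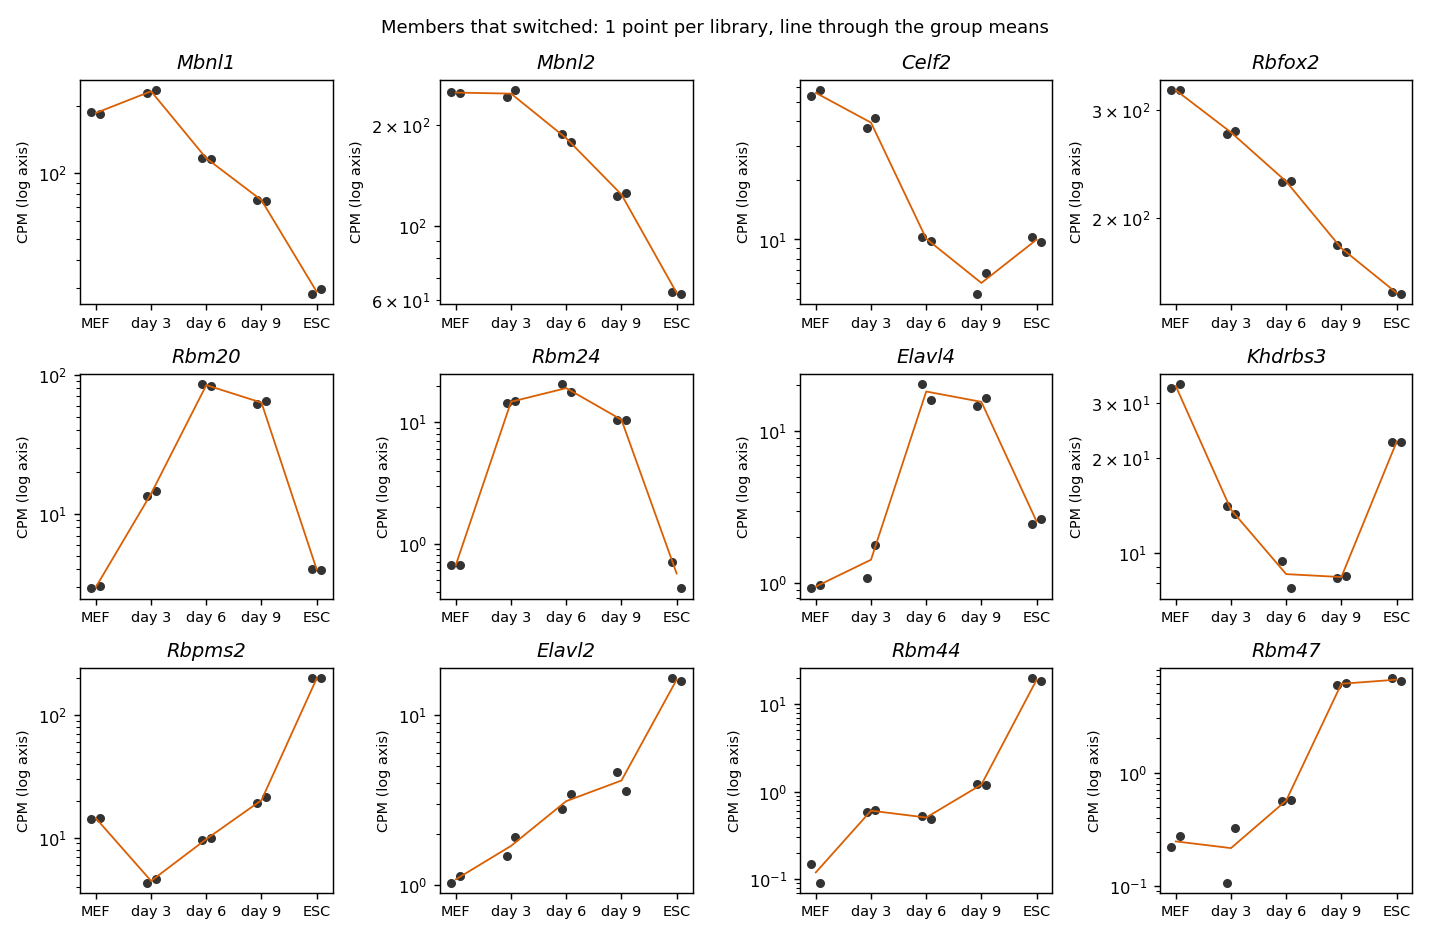
CPM of 12 members on log axes, 1 point per library and a line through the group means. Mbnl1, Mbnl2 and Rbfox2 step down to ESC, Rbm20, Rbm24 and Elavl4 are high on day 6 and day 9, Khdrbs3 dips there, and Rbpms2, Elavl2 and Rbm44 reach their highest level in ESC.

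The Rbm genes as a whole, those above included, were mixed. At day 3, 24 of 37 were higher and 8 lower (27 and 2 on library totals), against 35.4% and 29.5% of all genes. At day 6, 20 were higher and 3 lower (29.2% and 27.3% of all). Between ESC and MEF 22 were higher and 11 lower (25 and 5 on library totals), against 40.4% and 36.2% of all. Rbm3, a cold-induced protein encoded on the X, was the most abundant, at 445 and 455 CPM in MEF, 617 and 599 on day 3, 635 and 631 on day 6 and 318 and 315 in ESC. The X-linked Rbm10, which promotes exon skipping, rose from 57.3 and 57.1 CPM in MEF to 76.4 and 74.2 on day 3 and 96.5 and 94.7 on day 6. The other X-linked members, Hnrnph2, Rbm41 and Mbnl3, did not pass the test at day 3, with changes of 0.05 ± 0.03, 0.09 ± 0.17 and -0.08 ± 0.17. Rbm39, which helps U2AF, lay between 278 and 325 CPM in all libraries. Rbm5, a regulator of the splicing of apoptosis genes, rose from 132 and 141 CPM in MEF to 165 on day 3 and then fell at each step to 112 and 108 in ESC. Rbm12 rose 2.04-fold at day 3, from 24.1 and 25.6 to 48.9 and 52.7 CPM, but overlaps other genes on its strand and is uncertain, and the change was 0.99 without MEF replicate 1 and 0.98 without day 3 replicate 2, inside the 2-fold line. Rbm43 was at 13.3 and 14.2 CPM in MEF, 17.2 and 16.9 on day 3 and 5.66 and 6.73 in ESC, 2.22-fold below MEF (edgeR adjusted p = 4e-08). Rbm46 had 0.748 CPM or less in every library.

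The rest of the splicing machinery was read from lists fixed by symbol. A list of 21 genes held the Sm and Lsm genes together with other proteins of the small nuclear particles, such as Snrpa, Snrpc and Snrnp70. All 21 were higher in ESC than in MEF. By day 3, 20 had risen, and 19 rose from day 3 to day 6, with none lower. Of 26 Prp proteins and other core factors, 22 rose at day 3 and 21 at day 6, with 0 and 1 lower. The 7 tested kinases of SR proteins gave 6 higher and 1 lower at day 3, and Clk1 alone was called. Of 35 other regulators 24 rose and 5 fell at day 3 and 25 rose and 4 fell at day 6. These counts need no 2-fold change and stand against the shares of all genes given above.

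The proportions of transcripts within a gene changed for few members. For 52 members with enough reads, the odds of reads on transcripts annotated as non-coding against coding ones were tested with limma over 5674 genes. At day 3, 2 members were called higher (3.40% of all genes) and 1 lower (2.77%), and ESC against MEF gave 3 higher (4.74%) and 0 lower (2.04%). No member was called in either direction in the other steps, where 0.881% of all genes were called higher and 0.159% lower at day 6, 0.106% and 0.141% at day 9 and 1.66% and 3.01% for ESC against day 9. At these steps limma gave 14, 3 and 13 members at an unadjusted p under 0.05 for day 6, day 9 and ESC against day 9 (16.6%, 7.07% and 24.2% of all genes). The non-coding share of Srsf5 was 25.2% and 23.7% in MEF, 46.7% and 48.0% on day 3, 40.9% on day 6, 41.9% and 39.4% on day 9 and 36.0% and 33.9% in ESC. Its log2 odds rose by 1.48 ± 0.09 at day 3 (limma adjusted p = 0.0006), and it was the only 1 of the 10 SR genes tested that was called at day 3. Rbm3 had a share of 0.89% and 0.90% in MEF, 2.48% and 2.84% on day 3 and 4.98% and 4.42% in ESC, a rise of 1.59 ± 0.13 at day 3 and 2.45 ± 0.13 in ESC. The call for Elavl4 rested on 0 to 12 non-coding reads per MEF and day 3 library. The higher calls in ESC beside Rbm3 were Rbm4, from 14.7% and 17.0% in MEF to 34.0% and 31.9%, and Rbm4b, from 66.1% and 61.8% to 80.0% and 77.6%. Rbm4 overlaps another gene on its strand and is uncertain. Without ESC replicate 1 the 3 calls fell to 1.

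A test of single transcripts, chosen after these values were seen, gave the share of each transcript within its gene over 20498 transcripts, 233 of them from members. In it 11 member transcripts were called higher and 9 lower at day 3 (3.21% and 2.02% of all), 3 and 1 at day 6 (0.629% and 0.522%), 0 and 0 at day 9 (0.0781% and 0.0976%, with 22 in limma at an unadjusted p under 0.05, against 7.23% of all), 1 and 4 in ESC against day 9 (1.82% and 2.41%) and 10 and 8 in ESC against MEF (3.17% and 2.94%). The 9 lower calls of day 3 became 3 without MEF replicate 1 and 4 without day 3 replicate 1. The 3 higher of day 6 became 1 without day 6 replicate 1, the 1 lower was lost without any of the 4 libraries, and the 4 lower of ESC became 2 without day 9 replicate 2. Reads of 50 bases were divided among transcripts by a model, so these shares carry its error. Srsf6 and the transcripts named here were likewise picked from their values.

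In Srsf6 the coding transcript stood higher after MEF while its poison-exon transcript kept a similar level, and the share of the latter fell. Srsf6-001, which encodes the protein, was at 122 and 127 CPM in MEF, 222 and 205 on day 3, 293 and 299 on day 6, 265 and 285 on day 9 and 181 and 171 in ESC. Srsf6-002, annotated as a target of nonsense-mediated decay (NMD), was at 121 and 116, 98.8 and 101, 128 and 124, 125 and 130, and 107 and 110 CPM at the same stages. Its share of the gene's reads was 47.1% and 45.4% in MEF, 28.7% and 30.5% on day 3, 28.0% and 26.7% on day 6, 29.4% and 28.5% on day 9 and 34.9% and 36.4% in ESC. MEF stood above every other stage, and the change in log2 odds at day 3 was -1.04 ± 0.08 (limma adjusted p = 0.0012), which moved to -0.99 without MEF replicate 1 and -0.97 without day 3 replicate 1, inside the 2-fold line. Srsf6-002 holds an exon of 268 bases that is absent from Srsf6-001 and ends at position 162933082 of chromosome 2 (GRCm38, GENCODE M21). Its first 152 bases, chr2:162932815-162932966 on the plus strand, run to the stop codon TAG in capitals that ends the reading frame early:
Srsf6 poison exon: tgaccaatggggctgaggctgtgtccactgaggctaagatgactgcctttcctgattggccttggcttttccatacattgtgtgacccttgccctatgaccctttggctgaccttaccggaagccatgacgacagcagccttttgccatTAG

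An NMD transcript of Srsf3 and one of Tra2b, picked from their values, are given beside it. Srsf3-002 was at 21.3% and 20.2% of the reads of Srsf3 in MEF, 13.0% and 13.4% on day 3, 11.3% and 11.1% on day 6, 9.93% and 11.8% on day 9 and 9.55% and 11.2% in ESC, a change in log2 odds of -1.18 ± 0.13 between ESC and MEF (limma adjusted p = 0.0031). Tra2b-003 was at 13.7% and 13.4% in MEF, 8.34% and 5.96% on day 3 and 8.03% to 11.9% later. Its change at day 3 was -1.05 ± 0.21 (limma adjusted p = 0.036), and the call was lost without day 3 replicate 2 (-0.78) and without either MEF library (-1.03 and -1.06). The SR genes did not share 1 direction: the non-coding share of Srsf2 was 19.7% and 21.2% in MEF and 28.8% in both day 3 libraries, a change in log2 odds of 0.66 ± 0.10 (limma adjusted p = 0.013). A transcript marked for NMD is degraded as it is translated, so its share reflects its making and its decay together.

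The Srsf5 change lay in an intron. Srsf5-005, annotated as a retained intron, held 10.6% and 10.2% of the gene's reads in MEF, 32.2% and 35.1% on day 3, 26.6% and 26.4% on day 6, 27.1% and 25.4% on day 9 and 21.2% and 18.9% in ESC. The rise at day 3 was 2.13 ± 0.10 in log2 odds (limma adjusted p = 0.0003), and no MEF value came near the others. The intron has 1229 bases, from 80947866 to 80949094 of chromosome 12 on the plus strand (GRCm38, GENCODE M21). Its ends with 15 bases of each exon are shown, the GT and AG of the splice sites in capitals:
Srsf5 intron start, chr12:80947851-80947910: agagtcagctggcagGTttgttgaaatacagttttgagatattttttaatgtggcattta
Srsf5 intron end, chr12:80949050-80949109: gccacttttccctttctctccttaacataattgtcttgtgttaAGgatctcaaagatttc

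**Figure D5:**
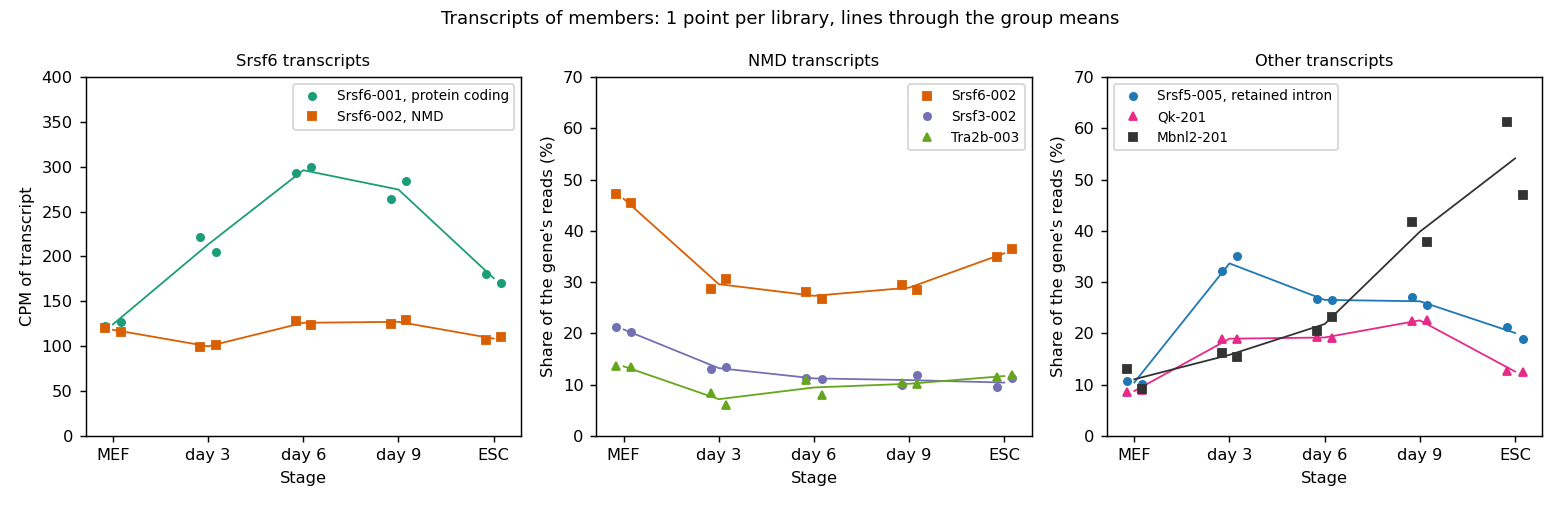
Left, CPM of the coding and the NMD transcript of Srsf6. Middle, share in percent of the gene's reads on 3 NMD transcripts, and right, on 3 further transcripts, with 1 point per library and lines through the group means. The MEF points are highest in the middle panel and lowest for Srsf5-005 and Qk-201, and Mbnl2-201 climbs to 61.2% and 47.1% in ESC.

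Transcripts of Mbnl2, Qk, Hnrnpd, Hnrnpa3 and Rbm33, also picked from their values, were among those called. Mbnl2-201, of 4552 bases, held 13.0% and 9.05% of the Mbnl2 reads in MEF, 16.2% and 15.4% on day 3, 20.4% and 23.2% on day 6, 41.8% and 37.9% on day 9 and 61.2% and 47.1% in ESC, as the gene itself fell. The change between ESC and MEF was 3.28 ± 0.31 in log2 odds (limma adjusted p = 0.0019). Qk-201 held 8.46% and 9.01% in MEF, 19.0% in both day 3 libraries, 19.2% and 19.1% on day 6, 22.5% and 22.6% on day 9 and 12.6% and 12.5% in ESC, while the level of Qk hardly moved. The share rose at day 3 by 1.29 ± 0.08 and fell by 1.02 from day 9 to ESC (limma adjusted p = 0.0006 and 0.0014). Hnrnpd-001 went from 2.65% and 2.56% in MEF to 9.19% and 8.93% on day 3 and 10.2% and 9.80% in ESC, and Hnrnpa3-001 from 28.3% and 27.8% to 52.2% and 49.0% on day 3 and back to 30.9% and 28.8% in ESC. Rbm33-006 rose from 33.5% and 33.2% in MEF to 60.1% and 63.7% on day 3.

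Mbnl1 has a 54-base exon, chr3:60614683-60614736 on the plus strand (GRCm38, GENCODE M21), in 5 of its transcript models and skipped in 9. It is shown because MBNL1 is known to regulate the splicing of its own RNA:
Mbnl1 exon: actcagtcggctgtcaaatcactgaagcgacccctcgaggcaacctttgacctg
The models with the exon held 46.1% and 50.4% of the reads of these models in MEF, 72.2% and 59.7% on day 3, 61.2% and 67.5% on day 6, 67.9% and 68.0% on day 9 and 65.7% and 57.7% in ESC. Both MEF values lay below all others, while the later stages overlapped. No test was run on this sum.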

How the data were processed

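Per the labels' protocols, total RNA was extracted with TRIZOL, and stranded mRNA libraries were sequenced as single reads on a HiSeq4000. Per the submitters' processing notes the authors used Salmon 0.8.2 and mm10. The annotation release and strand setting are not given in the sources used here. Per the file headers, the values the authors deposited are an estimated count of reads per transcript and library, not normalized. Per the file headers, the authors also deposited a TPM value per transcript, scaled by effective length. Transcript lengths and effective lengths are deposited beside them, and effective lengths were identical in all 10 tables.

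Transcript estimates were added up within each gene, then rounded to whole reads. Genes were filtered with filterByExpr (minimum count 10, total 15), scaled with TMM and tested in R 4.3.3 by edgeR 4.0.16 (glmQLFTest) over all 10 libraries, with 1 mean per group. Non-coding shares were tested with limma 3.58.1 on log2 odds (pseudocount 0.5) for genes with a mean of at least 200 reads, 20 of them non-coding. The test of single transcripts covered those holding 5% to 95% of such a gene's reads. The edgeR test gives no SE. The SE printed with an edgeR change is the absolute log2 fold change divided by the square root of the F statistic. DESeq2 1.42.0 served as an alternative. On simulated data for day 3 against MEF, edgeR recovered 200 of 200 changed genes among 20165 with 5 false calls. For limma these were 200 of 200 among 5674, with 5 false calls. In both runs every planted change was past the 2-fold minimum, none lay in scarce genes, and all genes were given the same spread. Full recovery was likely under these settings. How recovery depends on the size of the change or the level of the gene was not tested, so it is unknown for smaller changes and scarce genes.

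The common biological coefficient of variation was 3.75%. Pairs of replicates differed by more than sampling noise (chi-square per degree of freedom 2.91 to 5.43). Deviations of libraries with the same number correlated at -0.0205 to 0.0222. The labels do not say that the numbers pair libraries, and correlations this small cannot exclude a pairing.

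Members, roles and lists were chosen with earlier results of these data known. Genes named were a panel of 49 members whatever their values, plus, per comparison, the 5 largest rises and falls among called members with at least 10 CPM in the higher group and no overlap between the groups. Others were chosen after their values were seen: Srsf6, Srsf9, Hnrnpf, Hnrnpu, Hnrnph2, Rbm31y, Rbm41 and the single transcripts, Esrp1 and Clk1. Alternatives were other filters, scalings, units, tests, fits and left-out libraries. The strand setting being unknown, reads of genes that overlap on opposite strands may be mixed. All 108 members matched GENCODE M21 (GRCm38) by ID, and 89 had a promoter entry.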

Additional observations from a re-analysis of the deposited data

How the results depend on the processing

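Of 1774 recomputed values of named genes under filters, scalings, other tests and other fits, 1562 kept direction and call, 190 kept direction only and 22 reversed. Of 900 with 1 library left out, 825 kept the call, 75 kept direction only and 0 reversed. The replicate block left each count of called genes as it was (7 higher and 6 lower at day 3, 8 and 2 at day 6, 5 and 0 at day 9, 9 and 5 for ESC against day 9, 23 and 7 for ESC against MEF). For single transcripts the replicate block gave 10 higher and 7 lower at day 3, 2 and 0 at day 6, 0 and 0 at day 9, 2 and 4 for ESC against day 9 and 9 and 7 for ESC against MEF. Without the fold minimum the gene counts were 68 and 18, 70 and 9, 13 and 21, 28 and 55, and 71 and 28. The stricter filter, which tests fewer genes, left 2 lower at day 3 and 5, 2 and 5 higher at day 6, at day 9 and for ESC against day 9. From log2(TPM + 1) values limma called 2 up and 2 down at day 3, 3 and 1 at day 6, 0 higher at day 9 and 5 higher for ESC against day 9, and on log2(TPM + 0.1) 1 lower at day 6 and 0 higher at day 9. Library totals gave 1 lower at day 6 and 40 higher for ESC against MEF. With 1 library left out, day 6 had 1 to 2 lower and day 9 had 3 to 4 higher. Without the fold minimum, single transcripts gave 34 and 23 at day 3, 3 lower at day 6, 8 and 12 for ESC against day 9 and 24 and 17 for ESC against MEF. In DESeq2 7 SR genes, not 11, were lower in ESC than on day 9.

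For the non-coding share, NMD transcripts alone gave 0 higher and 2 lower at day 3, 1 lower for ESC against day 9, and 0 higher and 2 lower for ESC against MEF. Retained introns alone gave 1 higher for ESC against day 9 and 1 lower for ESC against MEF. A higher read minimum gave 0 lower at day 3, 1 higher at day 6 and 1 higher for ESC against MEF. The replicate block gave 0 lower at day 3, and a pseudocount of 5 gave 1 higher for ESC against day 9. Without the fold minimum there were 6 higher and 6 lower at day 3, and 3 lower for ESC against day 9 and against MEF. With 1 library left out the counts were 0 to 2 lower at day 3 (0 without either MEF library), 0 to 1 lower for ESC against day 9, and 1 to 4 higher and 0 to 1 lower for ESC against MEF.

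Reversals on library totals were, for ESC against MEF, Hnrnph1 at 0.16, Qk at 0.09, Hnrnpll at 0.07, Khdrbs1 at 0.03 and Rbm5 at 0.03, and for day 3 Qk at 0.10 and Rbpms at 0.05. In DESeq2 the day 3 changes of Ptbp1 and Rbm39 became -0.02 and that of Khdrbs1 -0.00. With limma, TPM (pseudocounts 1 and 0.1) turned, for ESC against day 9, U2af1l4 to 0.23 and 0.23, Ptbp1 to 0.10 and 0.10, Srsf7 to 0.06 and 0.07, Tra2b to 0.05 and 0.05 and Qk to 0.01 and 0.02, and Rbm39 at day 3 to -0.03 and -0.03. Other than fewer genes tested or fewer libraries, the cause was not tested. The labels do not say that replicate numbers pair the libraries. Genes under 1 CPM rest on few reads, and with 2 libraries a group only changes large against their spread can be called.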
